A study of Homo sapiens with 30 samples.

Results

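The MAPK feedback genes described here are DUSP4, DUSP5, DUSP6, SPRY2, SPRY4, SPRED1, SPRED2, ETV4, ETV5 and PHLDA1. The 10 genes were chosen by name, as feedback regulators and target transcription factors of the MAPK pathway, out of 58735 genes in the count table. Earlier results of these data were known at that choice, so counts over the 10 are a description. All 10 had enough counts to be tested, among 17499 genes tested. Messenger RNA was sequenced from PC3 cells, a human prostate cancer line, after 48 h of treatment. Cells received the solvent DMSO, SGI-1776 at 1500 nM or at 3750 nM, or SGI-1776-VHL-02 at 1500 nM or at 3750 nM, and each of these 5 groups has 6 libraries. SGI-1776 inhibits the PIM kinases, which promote growth and survival, and the PROTAC SGI-1776-VHL-02 belongs to a class of molecules that link a target protein to a ubiquitin ligase so that it is degraded. The series set out to compare inhibition of these kinases with their degradation. All groups shared 1 cell line and 1 duration of treatment.

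In the ERK pathway, an activated receptor tyrosine kinase loads RAS with GTP, and the kinases RAF, MEK and ERK then activate one another in turn. Active ERK switches on genes whose products shut the pathway down again. Dual-specificity phosphatases (DUSPs) remove the activating phosphates from ERK, while Sprouty (SPRY) and SPRED proteins act upstream at the level of receptors, RAS and RAF. ETV4 and ETV5 are ETS transcription factors of the PEA3 group that carry the signal on to further genes.

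Library totals ran from 22520292 to 48968707 counts. The 6 libraries of each group carry the labels Rep 1 or Rep 2, with 3 libraries in each, and the labels do not say which came from separate cultures, so p-values measure the spread between these libraries, which may be technical. In every group the share of counts from mitochondrially encoded genes was lower in Rep 2 (0.296 to 1.67% over all groups) than in Rep 1 (1.94 to 3.96%). The epithelial markers KRT8 (477 to 597 CPM, counts scaled to the library size), KRT18 and EPCAM were present in all 30 libraries. KLK3, which encodes prostate-specific antigen, had no count in any library. Summed leukocyte markers stayed at or below 1.36 CPM in every group. Among stromal markers, COL1A1 was counted at 27.2 to 63.3 CPM and PECAM1 at 3.92 to 6.34 CPM, and the summed fibroblast list overlapped between all groups.

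Per length of gene, DUSP4 stood highest in solvent-treated cells, at 89.3 ± 2.53 RPKM (counts scaled to gene length and library size, SD, n = 6). ETV4 followed at 60.9 ± 1.92 RPKM and PHLDA1 at 51.8 ± 1.28 RPKM. SPRY4 at 44.8 ± 1.85 RPKM and DUSP5 at 43.6 ± 6.64 RPKM had overlapping ranges, and the order of these neighbours is not set beyond their spread. SPRED2 (23.7 ± 0.929 RPKM) and SPRED1 (20.4 ± 2.32 RPKM) also overlapped. DUSP6 was at 15.6 ± 1.02 RPKM and ETV5 at 12.8 ± 0.514 RPKM, and SPRY2 was the lowest of the panel at 10.7 ± 0.562 RPKM. All other levels below are CPM and compare 1 gene between groups.

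Promoter sequence is shown for 4 members whose levels separated the compounds: SPRY4 and DUSP6, which were lower in SGI-1776-VHL-02 than in SGI-1776, and SPRY2 and PHLDA1, which were higher. Each run is the RefSeq promoter of GRCh38.p14, from 250 bases before to 50 bases after the annotated start of transcription, 5′ to 3′ on the minus strand of the chromosome. Capitals mark the ETS core CGGAA on either strand, the letters that ETS factors such as ETV4 and ETV5 recognise. The DUSP6 run lies at chr12:89352452-89352751, the SPRY4 run at chr5:142324198-142324497, the SPRY2 run (the first of 3 annotated starts) at chr13:80341077-80341376, and the PHLDA1 run at chr12:76031727-76032026.
DUSP6: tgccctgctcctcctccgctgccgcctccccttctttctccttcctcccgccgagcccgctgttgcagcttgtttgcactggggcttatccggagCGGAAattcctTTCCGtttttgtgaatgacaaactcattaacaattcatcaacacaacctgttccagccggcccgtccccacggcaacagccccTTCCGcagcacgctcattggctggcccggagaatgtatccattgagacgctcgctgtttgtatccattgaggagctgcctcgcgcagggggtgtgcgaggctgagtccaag
SPRY4: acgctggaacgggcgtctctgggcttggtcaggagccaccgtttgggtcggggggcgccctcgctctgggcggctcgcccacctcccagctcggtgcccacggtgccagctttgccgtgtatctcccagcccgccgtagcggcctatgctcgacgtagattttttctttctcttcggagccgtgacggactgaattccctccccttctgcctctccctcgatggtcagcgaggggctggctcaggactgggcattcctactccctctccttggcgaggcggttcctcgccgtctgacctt
SPRY2: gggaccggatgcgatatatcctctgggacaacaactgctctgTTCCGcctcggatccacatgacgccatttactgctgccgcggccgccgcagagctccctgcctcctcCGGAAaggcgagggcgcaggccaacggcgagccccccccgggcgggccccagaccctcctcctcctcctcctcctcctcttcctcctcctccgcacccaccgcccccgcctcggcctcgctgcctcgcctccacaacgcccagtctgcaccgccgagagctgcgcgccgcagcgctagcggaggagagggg
PHLDA1: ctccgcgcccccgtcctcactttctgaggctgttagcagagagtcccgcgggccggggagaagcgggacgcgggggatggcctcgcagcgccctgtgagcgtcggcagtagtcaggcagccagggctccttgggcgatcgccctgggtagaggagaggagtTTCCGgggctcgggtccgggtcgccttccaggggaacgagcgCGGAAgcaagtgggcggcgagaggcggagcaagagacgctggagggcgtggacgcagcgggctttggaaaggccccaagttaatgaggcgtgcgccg
The DUSP6 run held 3 such cores, the SPRY2 and PHLDA1 runs held 2 each, and the SPRY4 run held none of these letters in this window. Among 35116 promoters of the same length, 34.9% held at least 1 core. Of 9 promoters found for 6 members, 4 held it. The AP-1 letters TGANTCA, also searched on both strands, were in 1 of the 9 and in 7.71% of all promoters. The cyclic AMP response element TGACGTCA (1.85% of all) and the CArG box of serum response factor (1.29% of all) were in none of the 9. Among the printed windows, those with ETS cores thus belonged to members that were higher and to members that were lower in the PROTAC. The windows at the other annotated SPRY2 starts held no core.

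SGI-1776 moved the panel in both directions. SPRY4, SPRED2 and DUSP4 rose and PHLDA1 fell at both doses, DUSP6 rose and DUSP5 fell at 3750 nM, and SPRY2, SPRED1, ETV4 and ETV5 did not pass the test at either dose. In edgeR's quasi-likelihood test, with p adjusted by Benjamini-Hochberg over all 17499 genes and a threshold of 0.05, 3 of the 10 members were higher than in DMSO at 1500 nM and 1 was lower, against 5.28% and 7.65% of all genes tested. At 3750 nM, 4 were higher and 2 lower, against 17.2% and 18.4% of all genes. Scaled by library size alone these were 5 and 1, since SPRY2 (0.11, adjusted p = 0.0311) then passed and DUSP5 (adjusted p = 0.0509) did not. Over all genes, library size alone gave 3737 higher and 2623 lower at this dose. The median log2 fold change of the 10 was 0.03 at 1500 nM and 0.05 at 3750 nM, beside 0.00 and 0.01 over all genes.

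SGI-1776-VHL-02 also moved members both ways, but in another arrangement. SPRY4 and DUSP6 fell and SPRY2 rose at both doses, and at 3750 nM ETV4 fell while ETV5 and DUSP4 rose. At 1500 nM, 1 member was higher than in DMSO and 2 were lower, where 1.07% and 0.851% of all genes were. At 3750 nM, 3 were higher and 3 lower, against 11.5% and 10.3% of all genes. The median of the 10 was 0.02 at 1500 nM and -0.0020 at 3750 nM. Both compounds were compared with the same 6 DMSO libraries. SPRY4 and DUSP6 passed the test in opposite directions in the 2 compounds at 3750 nM, and DUSP4 passed it as higher in both.

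**Figure D1:**
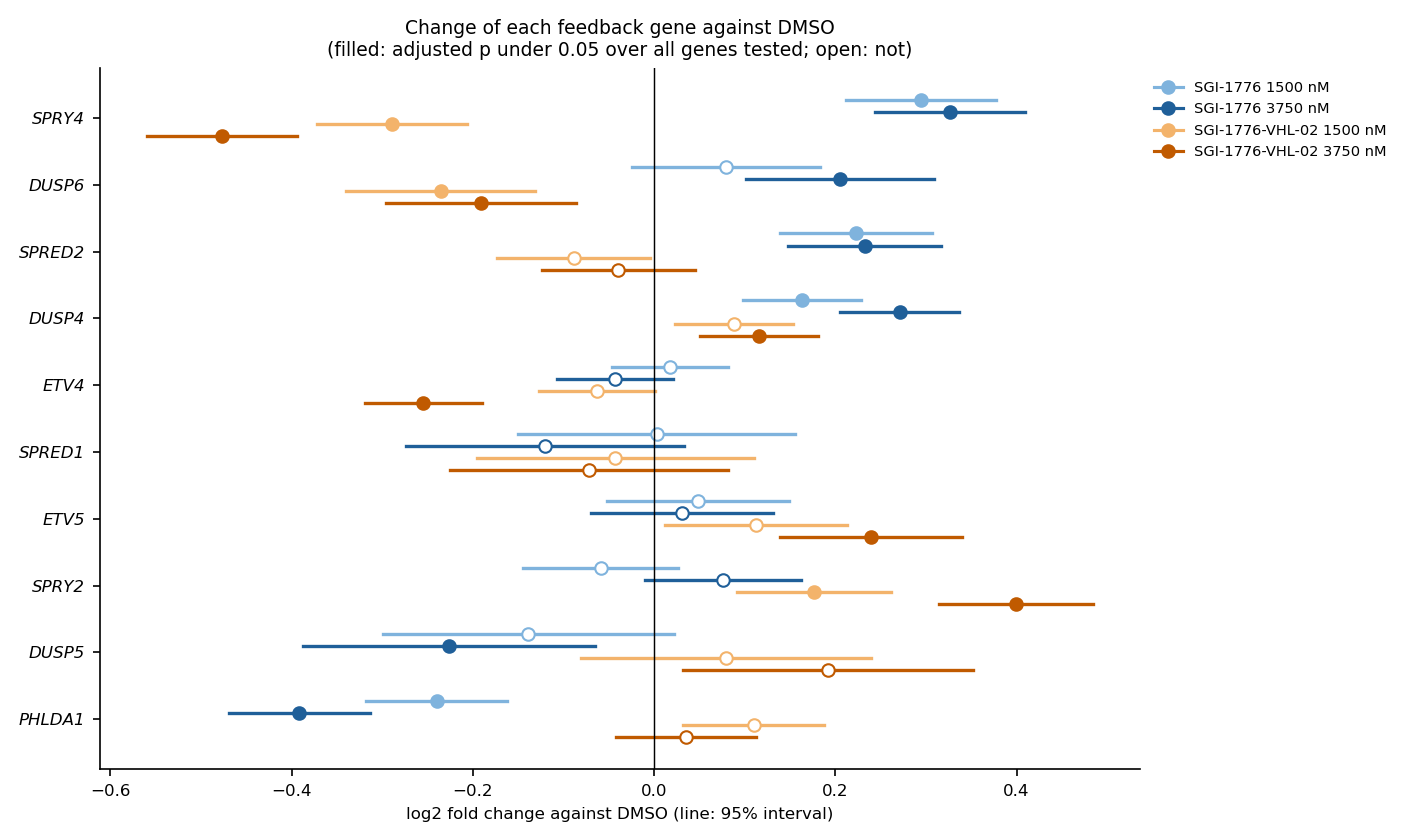
Log2 fold change against DMSO (x axis) of each of the 10 feedback genes (y axis) for the 2 compounds at 2 doses, with 95% intervals as lines and filled points where the adjusted p was under 0.05. SPRY4 lies at 0.29 and 0.33 in SGI-1776 and at -0.29 and -0.48 in SGI-1776-VHL-02, while PHLDA1 lies at -0.24 and -0.39 in SGI-1776 and at 0.11 and 0.04 in SGI-1776-VHL-02.

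SPRY4 (ENSG00000187678, chr5:142310427-142326455, minus strand), a Sprouty protein that restrains signalling from receptors to RAS, had the widest separation of the panel. Gene coordinates here and below are on GRCh38, as in the count table. In DMSO it ranged from 275 to 307 CPM (median 297). In SGI-1776 it ranged from 354 to 379 CPM (median 357) at 1500 nM and from 361 to 378 CPM (median 368) at 3750 nM. In SGI-1776-VHL-02 it ranged from 219 to 274 CPM (median 236) at 1500 nM and from 200 to 226 CPM (median 211) at 3750 nM. All 12 inhibitor libraries were above all 6 DMSO libraries, and all 12 PROTAC libraries were below them. Here and for the members below, the share of all genes whose libraries do not overlap with DMSO was not counted. The inhibitor changed SPRY4 on the log2 scale by 0.29 ± 0.04 (SE, adjusted p = 1.05e-05) and 0.33 ± 0.04 (adjusted p = 1.41e-07) with rising dose. The PROTAC changed it by -0.29 ± 0.04 (adjusted p = 3.94e-05) and -0.48 ± 0.04 (adjusted p = 2.03e-10). In Rep 2 alone, the change at 1500 nM of the PROTAC was -0.18 and did not pass (adjusted p = 0.118). Levels are averages over the culture, in which fewer cells expressing a gene and less RNA per cell cannot be told apart.

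SPRY2 (ENSG00000136158, chr13:80335976-80340951, minus strand), the Sprouty protein with the lowest level of the panel, went the other way from SPRY4. It ranged from 30.3 to 34.7 CPM (median 32.7) in DMSO, from 29.6 to 32.7 CPM (median 31.3) in SGI-1776 at 1500 nM and from 31.4 to 35.7 CPM (median 34.7) at 3750 nM. In SGI-1776-VHL-02 the range was 35.3 to 39.3 CPM (median 36.5) at 1500 nM and 40.1 to 45.5 CPM (median 43.1) at 3750 nM. The PROTAC libraries at either dose lay above every DMSO library, and the inhibitor libraries overlapped with DMSO. The log2 fold change of the PROTAC was 0.18 ± 0.04 (adjusted p = 0.02) at 1500 nM and 0.40 ± 0.04 (adjusted p = 1.25e-08) at 3750 nM. For the inhibitor it was -0.06 ± 0.04 (adjusted p = 0.424, 95% interval -0.14 to 0.03) and 0.08 ± 0.04 (adjusted p = 0.167, -0.01 to 0.16). The call at 1500 nM of the PROTAC did not hold in Rep 2 alone (0.11, adjusted p = 0.348) or without the libraries under 0.5% mitochondrial counts (adjusted p = 0.0666).

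SPRED1 and SPRED2 bind RAS and carry neurofibromin, which switches RAS off, to the membrane. SPRED2 (ENSG00000198369, chr2:65310851-65432637, minus strand) ranged from 113 to 126 CPM (median 124) in DMSO, from 137 to 150 CPM (median 142) in SGI-1776 at 1500 nM and from 137 to 150 CPM (median 144) at 3750 nM. In SGI-1776-VHL-02 it ranged from 108 to 125 CPM (median 114) and from 109 to 131 CPM (median 119). The inhibitor libraries were all above DMSO and the PROTAC libraries overlapped with it. The inhibitor gave a log2 fold change of 0.22 ± 0.04 (adjusted p = 0.000373) and 0.23 ± 0.04 (adjusted p = 3.95e-05) with rising dose. Neither dose of the PROTAC passed, at -0.09 ± 0.04 (adjusted p = 0.287) and -0.04 ± 0.04 (adjusted p = 0.576).

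SPRED1 (ENSG00000166068, chr15:38252326-38357249, plus strand) passed in none of the 9 comparisons, either in edgeR, also at an unadjusted p, or in DESeq2, and its log2 fold changes against DMSO lay between -0.12 and 0.00. It ranged from 150 to 195 CPM (median 164) in DMSO, and group medians in the treated cells were 154 to 167 CPM. In every group the mean of its Rep 2 libraries was above that of its Rep 1 libraries, by 0.19 to 0.28 on the log2 scale. With Rep as a block in the model, SPRED1 was lower in SGI-1776 at 3750 nM than in DMSO, at -0.12 with an adjusted p of 0.00884.

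Of the phosphatases, DUSP6 (ENSG00000139318, chr12:89347232-89353271, minus strand) acts on ERK in the cytoplasm. It ranged from 66.0 to 80.0 CPM (median 71.9) in DMSO, from 71.6 to 82.8 CPM (median 75.2) in SGI-1776 at 1500 nM and from 76.4 to 88.1 CPM (median 83.9) at 3750 nM. In SGI-1776-VHL-02 it ranged from 56.8 to 67.4 CPM (median 60.9) and from 57.8 to 70.0 CPM (median 62.5). Each treated range overlapped with that of DMSO, and none of the PROTAC libraries reached the lowest inhibitor library of the same dose. The log2 fold change was 0.08 ± 0.05 (adjusted p = 0.36) and 0.21 ± 0.05 (adjusted p = 0.00188) for the inhibitor with rising dose. For the PROTAC it was -0.24 ± 0.05 (adjusted p = 0.01) and -0.19 ± 0.05 (adjusted p = 0.00637).

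DUSP4, a phosphatase of the nucleus and the most abundant member per length, rose with the inhibitor. It ranged from 623 to 672 CPM (median 646) in DMSO, from 701 to 747 CPM (median 725) in SGI-1776 at 1500 nM and from 741 to 844 CPM (median 770) at 3750 nM. The PROTAC medians lay in between, at 691 CPM (range 661 to 709) and 707 CPM (range 671 to 730). All inhibitor libraries were above DMSO, and the PROTAC ranges overlapped with it. At 1500 nM the PROTAC range also overlapped with that of the inhibitor, and at 3750 nM it did not. The log2 fold change was 0.16 ± 0.03 (adjusted p = 0.000693) and 0.27 ± 0.03 (adjusted p = 6.17e-08) for the inhibitor. It was 0.09 ± 0.03 (adjusted p = 0.155) and 0.12 ± 0.03 (adjusted p = 0.00804) for the PROTAC, and the last of these did not pass in either Rep alone (adjusted p = 0.0761 without Rep 1 and 0.132 without Rep 2). With Rep as a block the lower dose of the PROTAC passed (adjusted p = 0.0447), but not with the block on sums per Rep (adjusted p = 0.192).

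DUSP5 (ENSG00000138166, chr10:110497838-110511544, plus strand), a phosphatase of the nucleus that is selective for ERK, depended on Rep. In DMSO its Rep 1 libraries lay at 96.1 to 99.7 CPM and its Rep 2 libraries at 128 to 132 CPM. In SGI-1776-VHL-02 at 3750 nM the same Reps lay at 128 to 137 CPM and 124 to 133 CPM. The PROTAC libraries were therefore all above DMSO in Rep 1 and overlapped with it in Rep 2. Over both Reps the change at this dose was 0.19 ± 0.08 (adjusted p = 0.0803), and with Rep as a block it was 0.21 (adjusted p = 0.00123). A model with separate effects by Rep gave 0.43 in Rep 1 and -0.02 in Rep 2, a difference of -0.45 ± 0.06 (adjusted p = 4.79e-05). In SGI-1776 DUSP5 ranged from 93.4 to 114 CPM (median 104) and from 85.3 to 107 CPM (median 99.2). With Rep as a block the lower dose passed at -0.13 (adjusted p = 0.0465), but not with the block on sums per Rep (adjusted p = 0.203). The higher dose passed at -0.23 ± 0.08 (adjusted p = 0.024), a call that did not hold in Rep 1 alone (-0.12, adjusted p = 0.069).

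**Figure D2:**
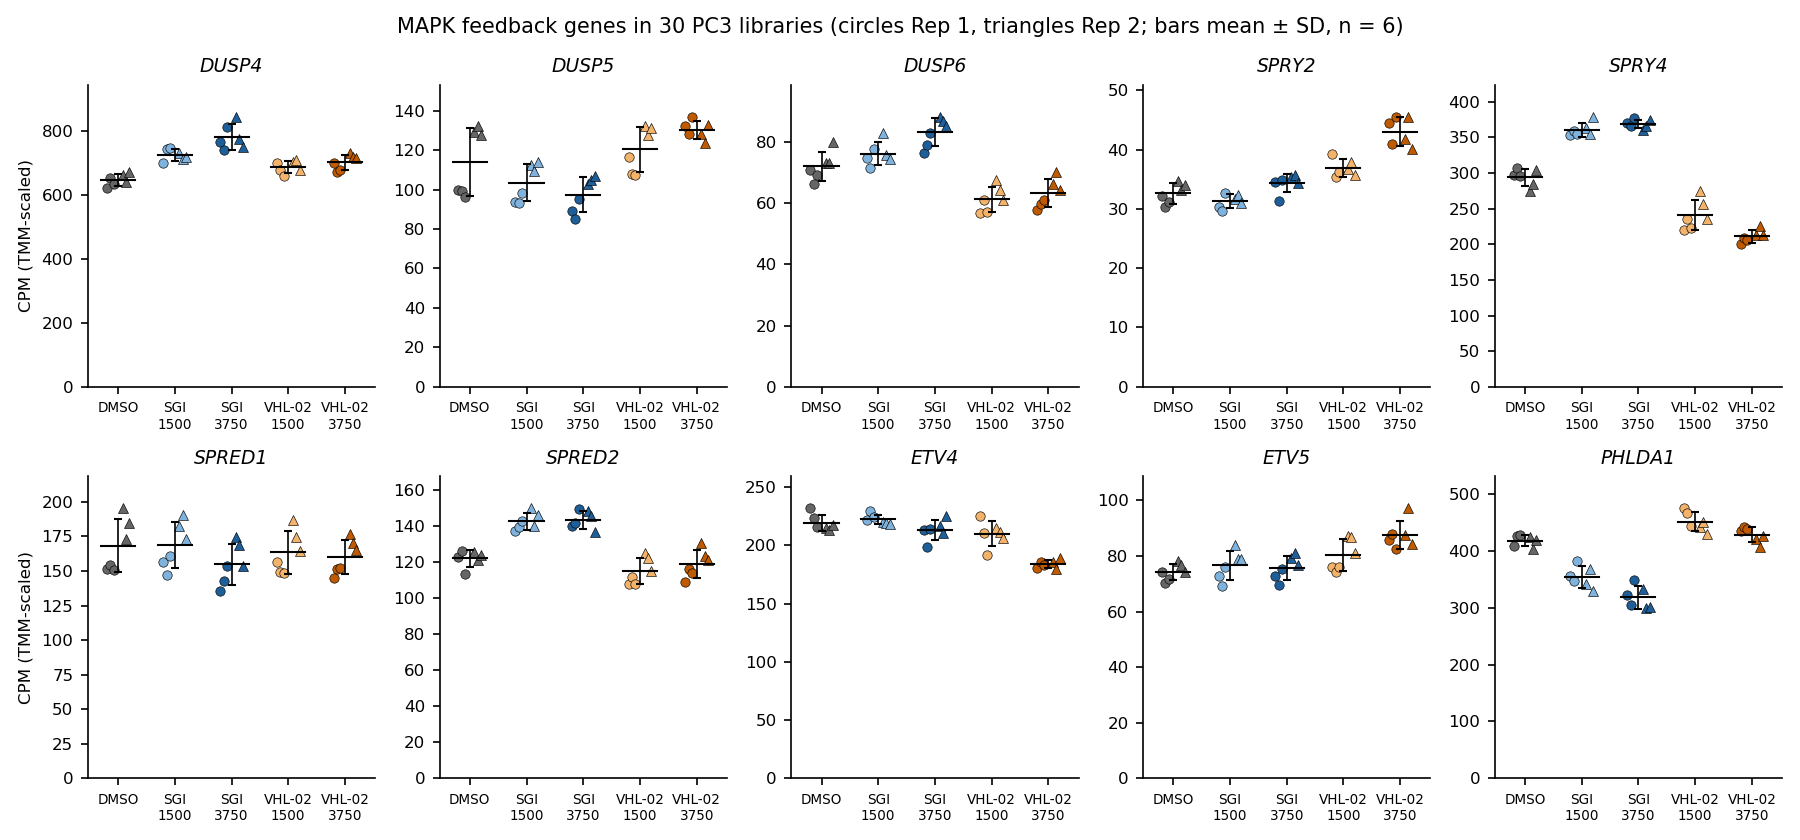
Level of each of the 10 feedback genes in CPM (y axis) in the 30 libraries, by treatment group (x axis), with Rep 1 and Rep 2 libraries marked apart and the group mean with its SD. SPRY4 medians run from 211 CPM in SGI-1776-VHL-02 at 3750 nM to 368 CPM in SGI-1776 at 3750 nM, and DUSP5 in DMSO falls into a Rep 1 cluster at 96.1 to 99.7 CPM and a Rep 2 cluster at 128 to 132 CPM.

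The transcription factors ETV4 and ETV5 moved in opposite directions in SGI-1776-VHL-02 at 3750 nM and passed the test in no other comparison with DMSO. ETV4 (ENSG00000175832, chr17:43527844-43579620, minus strand) ranged from 214 to 232 CPM (median 217) in DMSO and from 180 to 189 CPM (median 184) at this dose, with no overlap. Its log2 fold change was -0.25 ± 0.03 (adjusted p = 2.83e-07). ETV5 (ENSG00000244405, chr3:186046308-186110318, minus strand) ranged from 70.2 to 78.1 CPM (median 74.2) in DMSO and from 82.7 to 97.1 CPM (median 86.6) at this dose, again with no overlap. Its log2 fold change was 0.24 ± 0.05 (adjusted p = 0.000485). In SGI-1776 at 3750 nM ETV4 changed by -0.04 (95% interval -0.11 to 0.02) and ETV5 by 0.03 (-0.07 to 0.13). With Rep as a block, ETV5 was also higher in the PROTAC at 1500 nM (0.11, adjusted p = 0.0343), a call that the block on sums per Rep did not give (adjusted p = 0.157).

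PHLDA1 (ENSG00000139289, chr12:76025447-76033932, minus strand), a pleckstrin homology domain protein whose gene ERK induces, fell with the inhibitor. It ranged from 403 to 429 CPM (median 421) in DMSO, from 329 to 383 CPM (median 351) in SGI-1776 at 1500 nM and from 299 to 349 CPM (median 314) at 3750 nM. In SGI-1776-VHL-02 it ranged from 429 to 475 CPM (median 448) at 1500 nM and from 407 to 442 CPM (median 430) at 3750 nM. The inhibitor libraries were all below DMSO, and the PROTAC libraries at 1500 nM were all above it. The inhibitor gave -0.24 ± 0.04 (adjusted p = 6.44e-05) and -0.39 ± 0.04 (adjusted p = 1.64e-09) with rising dose. The PROTAC gave 0.11 ± 0.04 (adjusted p = 0.134) and 0.04 ± 0.04 (adjusted p = 0.587), and with Rep as a block its lower dose passed (adjusted p = 0.0309), though not with the block on sums per Rep (adjusted p = 0.0963).

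To see how far these calls rest on treating each library as a replicate, counts were added up over the 3 libraries of a Rep, leaving 2 samples a group. SPRY4, DUSP4 and PHLDA1 in SGI-1776 at 3750 nM, and SPRY4, SPRY2 and ETV4 in SGI-1776-VHL-02 at 3750 nM, then still passed against DMSO. At 1500 nM no member passed for either compound in edgeR, although 4 members for the inhibitor and 3 for the PROTAC had an unadjusted p under 0.05. In these 2 comparisons the summed fit called 0 of all 17499 genes, with 1661 and 677 at an unadjusted p under 0.05. With the summed libraries and Rep as a block, all 10 calls for the inhibitor held. For the PROTAC, SPRY2 at 1500 nM was lost (adjusted p = 0.0526) and the other calls held.

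Set directly against each other at matched doses, the compounds differed in 9 of the 10 members at 3750 nM. DUSP5, SPRY2, ETV5 and PHLDA1 were higher in SGI-1776-VHL-02 than in SGI-1776, and DUSP4, DUSP6, SPRY4, SPRED2 and ETV4 were lower. Over all genes, 17.6% were higher and 13.5% lower in this comparison. At 1500 nM, DUSP5, SPRY2 and PHLDA1 were higher and DUSP6, SPRY4 and SPRED2 were lower, 3 members each way, against 14.4% and 10.7% of all genes. Scaled by library size alone, 2 were higher and 5 lower at 1500 nM, without DUSP5 (0.17, adjusted p = 0.103) and with DUSP4 and ETV4. Over all genes, library size alone gave 1614 higher and 2802 lower at 1500 nM. The 2 dose pairs used separate libraries throughout. Medians of the 10 were -0.06 at 1500 nM and -0.05 at 3750 nM, beside -0.01 and 0.00 over all genes, since members went both ways.

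SPRY4 differed by -0.58 ± 0.04 (adjusted p = 2.28e-11) at 1500 nM and by -0.80 ± 0.04 (adjusted p = 9.76e-16) at 3750 nM. DUSP6 differed by -0.31 ± 0.05 and -0.40 ± 0.05 (adjusted p = 2.6e-05 and 3.26e-07), and SPRED2 by -0.31 ± 0.04 and -0.27 ± 0.04 (adjusted p = 1.27e-06 and 4.74e-06). PHLDA1 went the other way, by 0.35 ± 0.04 and 0.43 ± 0.04 (adjusted p = 5.21e-08 and 2.46e-10). Libraries of the 2 compounds did not overlap for SPRY4, DUSP6, SPRED2, SPRY2 and PHLDA1 at either dose. The share of all genes without such overlap was not counted. SPRY2 was higher in the PROTAC by 0.24 ± 0.04 and 0.32 ± 0.04 (adjusted p = 8.33e-05 and 3.14e-07). DUSP5 was higher by 0.22 ± 0.08 and 0.42 ± 0.08 (adjusted p = 0.0393 and 0.000102), and at 1500 nM this call did not hold without the libraries under 0.5% mitochondrial counts (0.16, adjusted p = 0.207).

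ETV4 and ETV5 separated the compounds at 3750 nM, by -0.21 ± 0.03 (adjusted p = 3.53e-06) and 0.21 ± 0.05 (adjusted p = 0.00136). At 1500 nM ETV4 differed by -0.08 (95% interval -0.14 to -0.02, adjusted p = 0.0579) and ETV5 by 0.06 (-0.04 to 0.16, adjusted p = 0.361). DUSP4 differed by -0.16 ± 0.03 (adjusted p = 0.000309) at 3750 nM and by -0.07 (-0.14 to -0.01, adjusted p = 0.0854) at 1500 nM. With Rep as a block both ETV4 and DUSP4 passed at 1500 nM (adjusted p = 0.0335 and 0.0368), and neither passed with the block on sums per Rep (adjusted p = 0.162 and 0.165). SPRED1 did not pass at either dose, at -0.05 (-0.20 to 0.11) and 0.05 (-0.10 to 0.20), which does not show that the compounds act alike on it. After the libraries were summed per Rep, DUSP6, SPRY2, SPRY4, ETV4 and PHLDA1 still passed at 3750 nM and SPRY4 and PHLDA1 at 1500 nM. With Rep as a block in that summed fit, all 9 members passed at 3750 nM and all 6 at 1500 nM.

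The step from 1500 to 3750 nM moved 3 of the 10 members for each compound. Between the doses of SGI-1776, DUSP4 (0.11 ± 0.03, adjusted p = 0.029) and SPRY2 (0.13 ± 0.04, adjusted p = 0.0386) were higher at 3750 nM and PHLDA1 (-0.15 ± 0.04, adjusted p = 0.00914) was lower. These were 2 members higher and 1 lower, where 4.46% and 4.69% of all genes were. None of the 3 passed in either Rep alone or with only the 2 groups in the model, and with Rep as a block DUSP6 (0.12, adjusted p = 0.0108) and SPRED1 (-0.12, adjusted p = 0.0178) passed as well. With the block on sums per Rep, PHLDA1 was the 1 member called, and DUSP6 (adjusted p = 0.0628), SPRED1 (0.0521), DUSP4 (0.0927) and SPRY2 (0.123) did not pass. Between the doses of SGI-1776-VHL-02, SPRY2 was higher by 0.22 ± 0.04 (adjusted p = 0.000185), SPRY4 lower by -0.19 ± 0.04 (adjusted p = 0.00107) and ETV4 lower by -0.19 ± 0.03 (adjusted p = 3.65e-05). That made 1 member higher and 2 lower, against 9.23% and 9.74% of all genes. In sums per Rep without the block none passed in edgeR, with 3 at an unadjusted p under 0.05. These calls held in each Rep alone and, with Rep as a block, after the libraries were summed, and the block added ETV5 (0.13, adjusted p = 0.00351).

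Whether the gap between the compounds widened with dose was tested as an interaction, the difference at 3750 nM less that at 1500 nM. SPRY4 alone of the 10 passed, at -0.22 ± 0.06 (adjusted p = 0.0284), in a comparison where 1.66% of all genes were higher and 1.02% lower. This 1 call did not pass in Rep 1 alone (-0.19, adjusted p = 0.0756), in Rep 2 alone (-0.25, adjusted p = 0.116) or without the libraries under 0.5% mitochondrial counts (-0.15, adjusted p = 0.129).

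**Figure D3:**
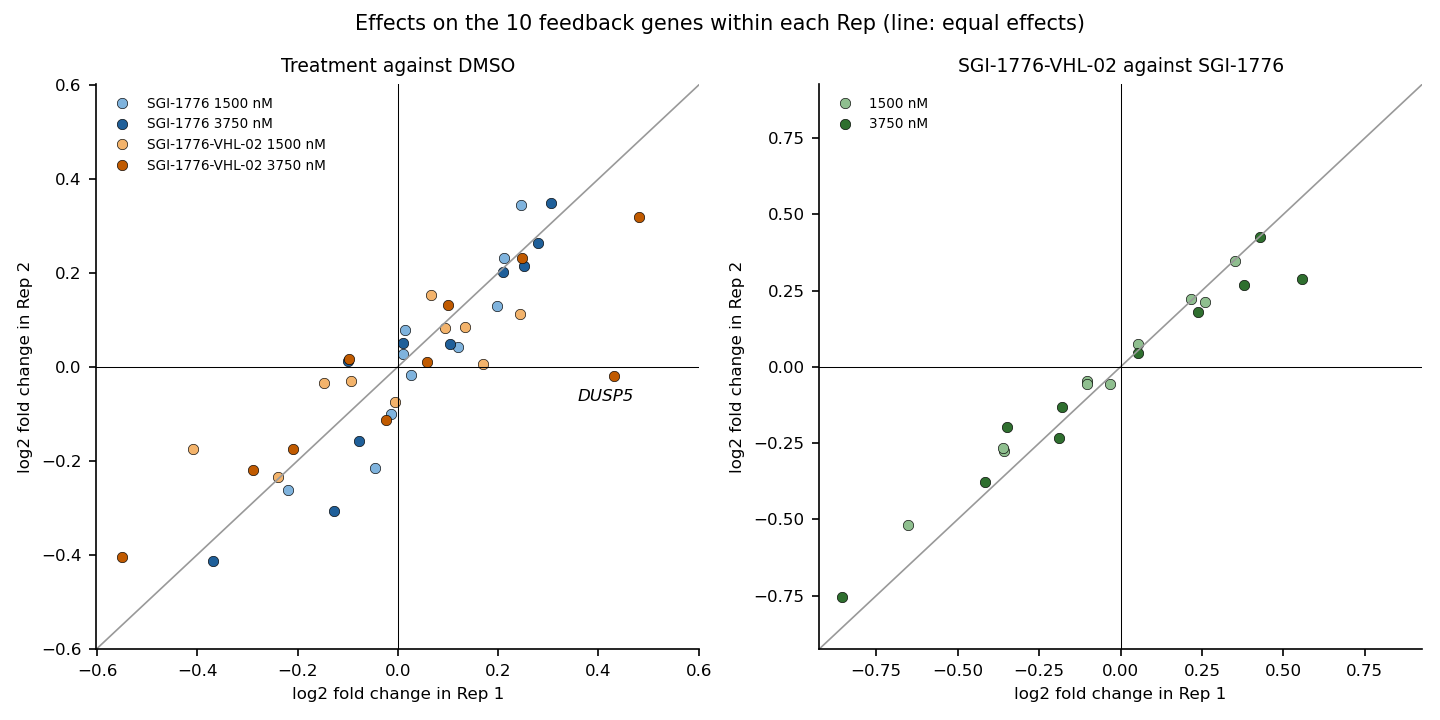
Log2 fold change of each feedback gene in Rep 1 (x axis) and in Rep 2 (y axis) from a model with separate effects by Rep, with the diagonal as the line of equal effects. Most points lie near the diagonal, and DUSP5 in SGI-1776-VHL-02 at 3750 nM against DMSO stands away from it at 0.43 in Rep 1 and -0.02 in Rep 2.

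Other genes of the pathway were read from 5 lists, whose counts stand beside those over all genes: 17.6% higher and 13.5% lower between compounds at 3750 nM, 14.4% and 10.7% at 1500 nM, and against DMSO at 3750 nM 17.2% and 18.4% in the inhibitor and 11.5% and 10.3% in the PROTAC. In sums per Rep, 723 of all 17499 genes were higher and 678 lower between compounds at 3750 nM (97 and 125 at 1500 nM). Against DMSO at 3750 nM, these sums gave 844 and 898 in the inhibitor and 251 and 159 in the PROTAC. Library size alone gave 2089 higher and 3364 lower between compounds at 3750 nM. Against DMSO at that dose it gave 3737 and 2623 in the inhibitor and 1765 and 2153 in the PROTAC. Of 7 further MAPK phosphatases, 5 were higher in SGI-1776-VHL-02 than in SGI-1776 at 1500 nM and 4 at 3750 nM. DUSP8, a phosphatase of the stress kinases, differed by 0.45 ± 0.11 (adjusted p = 0.00281) and 0.69 ± 0.11 (adjusted p = 1.03e-05), from 10.8 ± 1.82 CPM in the inhibitor at 3750 nM to 17.5 ± 1.08 CPM in the PROTAC. DUSP7, which acts on ERK, fell in SGI-1776 by 0.21 at 1500 nM (adjusted p = 0.00164) and by 0.36 at 3750 nM (adjusted p = 1.13e-07) on the log2 scale, and did not pass in the PROTAC. DUSP9 fell in SGI-1776 at 3750 nM, at -0.45 ± 0.10 (adjusted p = 0.000387), and DUSP16 rose in the PROTAC at 1500 nM, at 0.28 ± 0.05 (adjusted p = 0.00184). The median of the 7 between compounds was 0.24 at 1500 nM and 0.21 at 3750 nM, beside -0.01 and 0.00 over all genes. Against DMSO at 3750 nM, 1 was higher and 3 lower in the inhibitor, and 2 were higher in the PROTAC. After libraries were summed per Rep, 2 of the 7 passed as higher between compounds at 3750 nM and none at 1500 nM in edgeR, while 5 passed at each dose with Rep as a block on these sums. Without Rep 1, 3 passed at 1500 nM and 2 at 3750 nM, and without Rep 2, 3 passed at each dose. Over all genes, the sums with the block gave 2737 higher at 1500 nM and 3135 at 3750 nM. Leaving out Rep 1 gave 1668 and 2114 higher, and leaving out Rep 2 gave 2396 and 2854.

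Among 17 tested of 18 other negative regulators of receptors and RAS, 7 were higher and 3 lower in the PROTAC than in the inhibitor at 3750 nM. Scaled by library size alone these were 4 and 4, and after libraries were summed per Rep 4 and 1. ERRFI1, which blocks the EGF receptor kinase, had the largest difference of this list. Its mean was 260 ± 27.9 CPM in DMSO, 175 ± 7.42 CPM in SGI-1776 and 405 ± 31.9 CPM in SGI-1776-VHL-02 at 3750 nM, a difference between compounds of 1.21 ± 0.06 (adjusted p = 1.95e-15). SPRY1, the third Sprouty gene tested, followed the direction of SPRY4, with 58.8 ± 6.40 CPM in the inhibitor and 35.1 ± 4.99 CPM in the PROTAC at 3750 nM. Its change was 0.49 ± 0.09 (adjusted p = 0.000102) in SGI-1776 and -0.26 ± 0.09 (adjusted p = 0.0486) in SGI-1776-VHL-02 against DMSO at that dose. The SPRY1 call in SGI-1776-VHL-02 did not hold in sums per Rep or with no low-count filter. CBLB, a ubiquitin ligase for activated receptors, was higher in the PROTAC at 3750 nM by 0.48 ± 0.05 (adjusted p = 6.96e-09), and RASA3, a GTPase-activating protein of RAS, by 0.28 ± 0.04 (adjusted p = 6.33e-07). Against DMSO at 3750 nM, 3 of the 17 were higher and 5 lower in the inhibitor (4 and 4 by library size alone), and 5 were higher and 4 lower in the PROTAC. In sums per Rep, 2 were lower in the inhibitor and 2 higher in the PROTAC.

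Of 24 other ETS factors listed, 18 were tested, and 7 were higher and 2 lower in the PROTAC than in the inhibitor at 3750 nM (2 and 1 after libraries were summed per Rep). Against DMSO at this dose, 3 were higher and 6 lower in the inhibitor (6 and 5 by library size alone), and 4 were higher and 1 lower in the PROTAC. In sums per Rep, 2 were higher and 2 lower in the inhibitor and none passed in the PROTAC in edgeR. Adding Rep as a block to these sums gave 5 and 5 in the inhibitor and 4 and 1 in the PROTAC. Over all genes that fit gave 3366 higher and 3309 lower in the inhibitor and 2162 and 1846 in the PROTAC. ETS1 fell in SGI-1776 by 0.32 at 1500 nM and by 0.58 at 3750 nM on the log2 scale (adjusted p = 0.000362 and 5.15e-09), and ETV1, the third PEA3-group factor, rose by 0.32 and 0.59 (adjusted p = 0.000351 and 3.35e-09). ETV1 therefore rose in the inhibitor, where ETV4 and ETV5 did not pass the test. ELF3, an epithelial ETS factor, rose in SGI-1776 at both doses, to 79.7 ± 4.47 CPM from 50.1 ± 2.35 CPM in DMSO at the higher one. In SGI-1776-VHL-02 it was at 51.4 ± 5.10 CPM at 1500 nM and at 63.2 ± 2.15 CPM at 3750 nM. FLI1, at 3.37 to 4.75 CPM on average, fell in SGI-1776 at 3750 nM, at -0.46 ± 0.10 (adjusted p = 0.000284).

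The ERK cascade itself, with 28 genes from receptors to the ribosomal S6 kinases, had 10 genes higher and 3 lower in the PROTAC than in the inhibitor at 3750 nM, with a median of 0.08. Scaled by library size alone these were 8 and 5, and after libraries were summed per Rep 3 and 1. Against DMSO at this dose, 5 were higher and 9 lower in the inhibitor, and 5 were higher and 1 lower in the PROTAC (4 and 2 by library size alone). In sums per Rep, 3 were higher and 2 lower in the inhibitor, and 2 were higher in the PROTAC. EGFR, the EGF receptor, was higher in the PROTAC than in the inhibitor by 0.26 ± 0.06 (adjusted p = 0.00238) and 0.38 ± 0.06 (adjusted p = 1.5e-05) at the 2 doses. Its partner ERBB3 rose against DMSO in SGI-1776, by 0.34 and 0.54 (adjusted p = 0.000138 and 8.01e-09), and in SGI-1776-VHL-02 at 3750 nM by 0.16 (adjusted p = 0.0379), a call that did not hold in either Rep alone or in sums per Rep. Between the compounds, ERBB3 was thus lower in the PROTAC, by -0.38 ± 0.06 at each dose (adjusted p = 8.99e-06 and 4.22e-06). RPS6KA2, a kinase that ERK activates, rose against DMSO in both compounds at 3750 nM, by 0.51 ± 0.07 in SGI-1776 and by 0.96 ± 0.07 in SGI-1776-VHL-02 (adjusted p = 3.22e-07 and 1.56e-12). MRAS, a relative of RAS, rose in the PROTAC at 3750 nM, at 0.40 ± 0.06 (adjusted p = 8.39e-06).

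A list of 24 other genes known as outputs of ERK had more members lower than higher in the inhibitor. In SGI-1776 at 3750 nM, 15 of the 24 fell and 4 rose, with a median of -0.24, where 18.4% of all genes fell and 17.2% rose, and after libraries were summed per Rep 8 fell and 2 rose. In SGI-1776-VHL-02 at that dose 7 rose and 2 fell (7 and 5 by library size alone), with a median of 0.07, where 11.5% of all genes rose and 10.3% fell. This balance depended on Rep: 6 rose and 6 fell without Rep 1, and 12 and 2 without Rep 2. With Rep as a block 11 rose and 6 fell, and 3 rose in sums per Rep. The balance over all genes moved as well, with 1439 higher and 1924 lower without Rep 1 and 1714 and 1338 without Rep 2. For all genes the block gave 2810 and 2464, and sums per Rep gave 251 and 159. Between compounds, 16 of the 24 were higher and 3 lower in the PROTAC at 3750 nM. After libraries were summed per Rep, 7 of the 24 were higher and 1 lower. CCND1, which encodes cyclin D1, fell in the inhibitor at 3750 nM and rose in the PROTAC, at -0.24 ± 0.05 (adjusted p = 0.000336) and 0.15 ± 0.05 (adjusted p = 0.0302). EPHA2, an ephrin receptor, fell in the inhibitor by 0.31 on the log2 scale (adjusted p = 4.84e-08), and its relative EPHA4, at 3.26 to 4.26 CPM on average, rose by 0.36 (adjusted p = 0.0374). KCNN4, a calcium-activated potassium channel, went the way of SPRY4, with 187 ± 15.5 CPM in the inhibitor and 114 ± 6.22 CPM in the PROTAC at 3750 nM. GDF15, a secreted stress hormone that other pathways also induce, rose in both compounds at 3750 nM by 1.24 ± 0.12 and 1.20 ± 0.12 (adjusted p = 2.63e-09 and 8.77e-09). EGR1 and FOS, early genes of the pathway, were below 1 CPM on average in every group after 48 h. In that low range, FOS was lower in the PROTAC than in the inhibitor at 3750 nM, at -0.83 ± 0.21 (adjusted p = 0.0029), and EGR1 at -1.16 ± 0.36 (adjusted p = 0.0126).

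**Figure D4:**
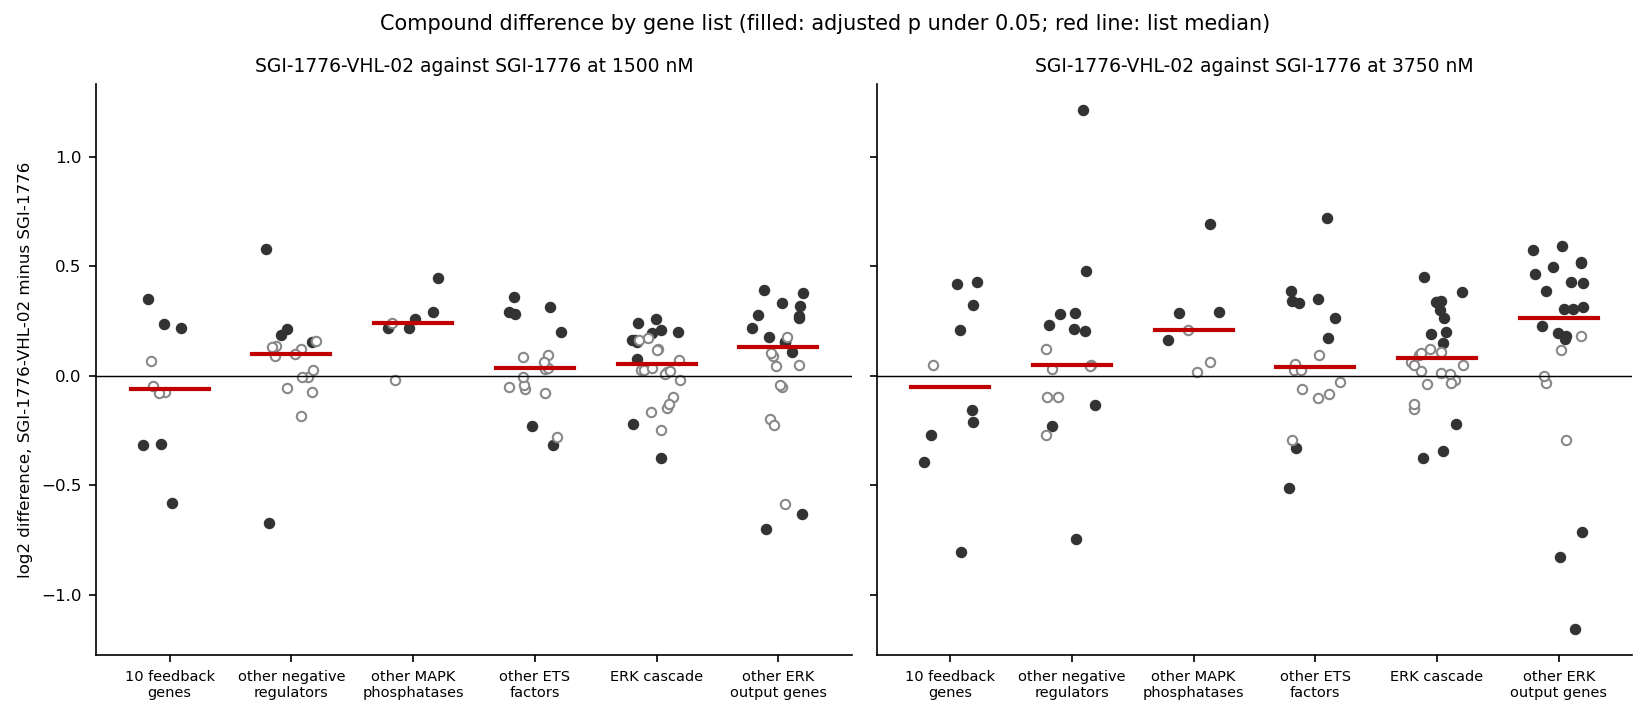
Log2 difference of SGI-1776-VHL-02 minus SGI-1776 (y axis) at 1500 nM and at 3750 nM for each tested gene of 6 lists (x axis), filled where the adjusted p was under 0.05, with the list median as a red line. The 10 feedback genes spread to both sides of 0, from -0.80 to 0.43 at 3750 nM, while the median of the 24 other ERK output genes lies at 0.27 and that of the 7 other MAPK phosphatases at 0.21.

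Across the 30 libraries, with the mean of each Rep subtracted, members fell into groups that shared their course over the treatments. The log2 levels of DUSP6 and SPRY4 had a Pearson correlation of 0.90, SPRY4 and SPRED2 of 0.88, and DUSP6 and SPRED2 of 0.87. SPRY2 and ETV5 correlated at 0.84 and DUSP5 and PHLDA1 at 0.80. The course of SPRY4 ran against that of DUSP5 (-0.88), PHLDA1 (-0.84) and SPRY2 (-0.80). These points share the treatment groups, and within groups and Reps the correlation was 0.53 for DUSP6 and SPRY4 and -0.06 for SPRY4 and DUSP5. Among 10832 protein-coding genes with a mean of at least 5 CPM, the course most like that of SPRY4 was that of PHACTR3 (0.98), TTC19 (0.98) and CADPS2 (0.97). For DUSP6 these were PNMA1 (0.95), CREB3L1 (0.94) and FAM131B (0.94), and for ETV5 they were AHNAK2 (0.92), TMEM268 (0.91) and AC118549.1 (0.90).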

How the data were processed

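Reads were assigned to genes with featureCounts 1.5.0-p3 on GRCh38/hg38, per the submitters' processing notes, and the authors deposited raw counts per gene for 58735 genes in 30 libraries. The sources used here name no aligner, and the labels name directional and non-directional library preparation without saying which was used, so reads from overlapping antisense genes cannot be told apart. Without molecular identifiers, a count is not a molecule. Library totals are 22520292 to 48968707 counts.

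Libraries were grouped by their labels, 6 to each of 5 groups. Genes were kept by filterByExpr (17499), scaled by TMM and fitted in edgeR 4.0.16 (R 4.3.3), where the quasi-likelihood fit took in all 30 libraries in their 5 groups. The procedure was first tested on simulated libraries without a difference between Reps, a check that does not cover the Rep differences here. Tests were two-sided, with Benjamini-Hochberg adjustment over all genes kept and a threshold of 0.05. "Higher", "rose", "lower" and "fell" are used of genes past this threshold. The SE is the absolute log2 fold change over the root of the F statistic, and intervals are 95%. CPM were computed from the deposited counts and the TMM-scaled library size, and RPKM by dividing by the gene length in the deposited table. DESeq2 1.42.0 was an alternative test.

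The Rep numbers of the labels paired the groups, since the difference between Rep 2 and Rep 1 correlated across genes at 0.628 to 0.787 over all 10 pairs of groups, and a fit with Rep as a block is therefore given where it changed a call (as for DUSP5 in SGI-1776 at 1500 nM against DMSO, with an adjusted p of 0.0465, or 0.203 when libraries were also summed per Rep). No 2 libraries of a group were copies of each other.

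The 10 members and the 5 pathway lists were chosen with earlier results of these data known, and counts over a list are a description. All 10 members are named. From each list up to 4 genes are named, those called in a comparison with DMSO or between compounds with the largest absolute log2 fold change, and CCND1, EPHA2, EPHA4 and SPRY1 are always given. Likeness of course is the Pearson correlation of log2(CPM + 1) after the mean of each Rep was subtracted. Promoters were read from RefSeq on GRCh38.p14 for 6 members by gene symbol.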

Additional observations from a re-analysis of the deposited data

Results flagged for a closer look

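In 2 of 50 groups of 6 libraries (10 genes in 5 groups), 1 library stood far from the other 5 by Dixon's criterion, and chance alone gives about 1 in 20. SPRY2 was at 31.4 CPM in the library Rep 1 (2) of SGI-1776 at 3750 nM, the lowest of its group. ETV5 was at 97.1 CPM in the library Rep 2 (2) of SGI-1776-VHL-02 at 3750 nM, the highest of its group.

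SPRY4 was the 1 member whose difference between the compounds itself differed between the doses, by -0.22 on the log2 scale. That call did not hold in either Rep alone, with no low-count filter, or in sums per Rep with Rep as a block. For DUSP5, the change in SGI-1776-VHL-02 at 3750 nM against DMSO differed between the Reps, with Rep 2 minus Rep 1 at -0.45, and its change between the doses of this compound differed likewise, at -0.29 (0.26 in Rep 1 and -0.03 in Rep 2, adjusted p = 0.0324 in edgeR). These were 2 of 80 such differences tested over the members, and both include the DUSP5 levels in SGI-1776-VHL-02 at 3750 nM. Over all 17499 genes, 0.257% passed in the first of these comparisons and 0.0914% in the second. The share of mitochondrially encoded counts also differed between the Reps in every group, and its part in the DUSP5 difference was not tested.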

How the results depend on the processing

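No member's called change turned its direction under any of the 10 alternatives. Of 90 values (10 members in 9 comparisons), 41 passed with 30 libraries. Summing the 3 libraries of each Rep, which leaves 2 samples a group, kept 13 of the 41, and with the replicate block in that summed fit 37 were kept. Counts of members called after summing were 0 in SGI-1776 1500 nM, 3 in SGI-1776 3750 nM, 0 in SGI-1776-VHL-02 1500 nM and 3 in SGI-1776-VHL-02 3750 nM against DMSO, 2 and 5 between compounds at 1500 and 3750 nM, 0 for either dose step and 0 for the interaction, while 4, 5, 3, 4, 5, 9, 1, 3 and 0 members in that order had an unadjusted p under 0.05 in edgeR. In the 4 comparisons at 1500 nM against DMSO, between the doses of SGI-1776 and for the interaction, the summed fit called 0 of all 17499 genes, with 623 to 1661 at an unadjusted p under 0.05. In this order the summed fit with the block called 4, 7, 2, 7, 6, 9, 1, 4 and 0. Over all genes, the summed fit without the block called 844 higher and 898 lower in SGI-1776 3750 nM. In SGI-1776-VHL-02 3750 nM it called 251 and 159. Between compounds it called 97 and 125 at 1500 nM and 723 and 678 at 3750 nM, and between the doses of SGI-1776-VHL-02 77 and 59. With the replicate block alone all 41 were kept and 11 more passed, which took the count in SGI-1776-VHL-02 1500 nM from 3 to 6 and between the doses of SGI-1776 from 3 to 5, with DUSP5 gained in SGI-1776 1500 nM, SPRED1 in SGI-1776 3750 nM, DUSP5 in SGI-1776-VHL-02 3750 nM, DUSP4 and ETV4 between compounds at 1500 nM and ETV5 between the doses of SGI-1776-VHL-02. The block changed no other call, and 3 of its 11 gains also passed in the summed fit with the block. Over all genes, the block took the calls in SGI-1776-VHL-02 1500 nM from 187 higher and 149 lower to 1050 and 599. Between the doses of SGI-1776 it took them from 780 and 821 to 1444 and 1584. DESeq2 kept all 41 and added 1, and library size alone kept 39 and added 3.

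Fitting only the groups of the contrast called 1 in SGI-1776-VHL-02 1500 nM, where SPRY4 remained and DUSP6 (adjusted p = 0.0663) and SPRY2 (0.0893) did not, and 0 between the doses of SGI-1776 (4 unadjusted). With no low-count filter 1 was called for the dose step of SGI-1776 and 0 for the interaction (2 unadjusted), and without the libraries under 0.5% mitochondrial counts again 1 and 0 (5 unadjusted). Leaving out all libraries of Rep 1 or of Rep 2 gave 1 to 3 calls in SGI-1776-VHL-02 1500 nM, 0 to 0 between the doses of SGI-1776, 3 to 5 between the doses of SGI-1776-VHL-02 and 0 to 1 in the interaction, where the 1 without Rep 2 was DUSP5 (0.35, adjusted p = 0.00837) and not SPRY4. The cause was not tested. DUSP4 in SGI-1776 1500 nM did not pass without Rep 1 (0.12, adjusted p = 0.0685). With 2 Reps a group, a member that did not pass is not thereby shown to be unchanged. The size of a change alone did not decide a call. DUSP4 passed at 0.11 between the doses of SGI-1776, and DUSP5 did not at 0.19 in SGI-1776-VHL-02 3750 nM against DMSO.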
